A study of Mus musculus with 16 samples.

Results

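A set of 10 genes of the calcineurin pathway was examined in activated mouse CD8 T cell clones: the drug receptor cyclophilin A (Ppia), the calcineurin subunits Ppp3ca, Ppp3cb and Ppp3r1, the transcription factors Nfatc1, Nfatc2, Nfatc3 and Nfat5, and the calcineurin regulators Rcan1 and Cabin1. These 10 genes were chosen by symbol in the platform annotation, and all 10 were measured among 19938 genes. The 4 groups were an unconventional clone activated with antibody to CD3 in the presence of cyclosporine A (CsA) at 1 ug per ml, the same clone with anti-CD3 alone, a conventional clone with anti-CD3 and CsA, and that clone with anti-CD3 alone, with 4 Affymetrix arrays each, 16 in all. The labels name the unconventional clone a cyclosporine-resistant and the conventional clone a cyclosporine-sensitive CD8 T cell. The antibody was immobilized and all groups were activated in medium free of recombinant cytokines, after growth with a cytokine mixture. Unstimulated cells were not analysed here, so each value is one of activated cells. Each kind of cell stands for 1 clone, so a difference between the clones cannot be told apart from a difference between any 2 clones. Whether the 4 replicates are separate cultures is not stated, so the p-values speak of the scatter among these samples, part or all of which may be technical.

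Calcineurin is a calcium-dependent phosphatase made of a catalytic A subunit and a regulatory B subunit, and it is switched on by calmodulin when T cell receptor signals raise cytosolic calcium. It removes phosphates from NFAT proteins, which then enter the nucleus and drive cytokine genes, while several kinases put the phosphates back. CsA binds cyclophilin A, and the complex blocks calcineurin. RNA levels say nothing of this phosphatase activity or of where NFAT proteins lie in the cell.

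Values are the deposited log2 expression values per probe set (the group of probes that reports a transcript), where a difference of 1 is a 2-fold change. Calls were made at 0.05 on the adjusted p of limma, fitted to all 19938 genes and 16 arrays and adjusted by the Benjamini-Hochberg method. Array medians ran from 5.16 to 5.35, and arrays of a group correlated at 0.9947 to 0.998. The T cell markers Cd3d, Cd3e, Cd3g, Cd247, Cd8a and Cd8b1 had group means of 8.56 or more, while the T cell marker Cd2 stood at 3.99 to 4.25. The 25 markers of helper T cells, B cells, macrophages and dendritic cells, NK cells, epithelium and fibroblasts, and erythroid cells and granulocytes gave list means of 3.38 to 5.56 over the arrays, and the highest group mean of a single one was 7.07, for Zbtb7b. In such bulk samples fewer cells of a kind and less RNA per cell cannot be told apart.

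With CsA, 4 of the 10 genes were called in the unconventional clone, 2 higher and 2 lower, against 24.9% of all genes (12.6% higher and 12.3% lower). With median centring of the arrays 3 of the 10 were called there, 1 higher and 2 lower, and the called genes were 1931 higher and 2684 lower (41.8% higher), against 2518 higher and 2452 lower (50.7%) without it. In the conventional clone 6 were called, 3 higher and 3 lower, against 31.4% of all genes (15.9% higher and 15.5% lower). The median absolute log2 change of the 10 genes was 0.08 in the unconventional clone, against 0.11 over all genes, and 0.36 in the conventional clone, against 0.13 over all genes. A called change of at least 2-fold was seen for 0 of the 10 in the unconventional clone (2.3% of all genes) and for 2, Nfatc2 and Ppp3ca, in the conventional clone (5.06% of all genes). The arrays with and without CsA did not overlap for 3 of the 10 in the unconventional clone (27.2% of all genes) and for 6 in the conventional clone (30.5% of all genes). The catalytic subunit Ppp3ca and the factor Nfatc3 rose in both clones, Nfatc1 and Nfat5 fell in both, and the drug's receptor Ppia was called in neither. Nfatc2 was the 1 gene of the 10 whose response was called different between the clones.

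**Figure D1:**
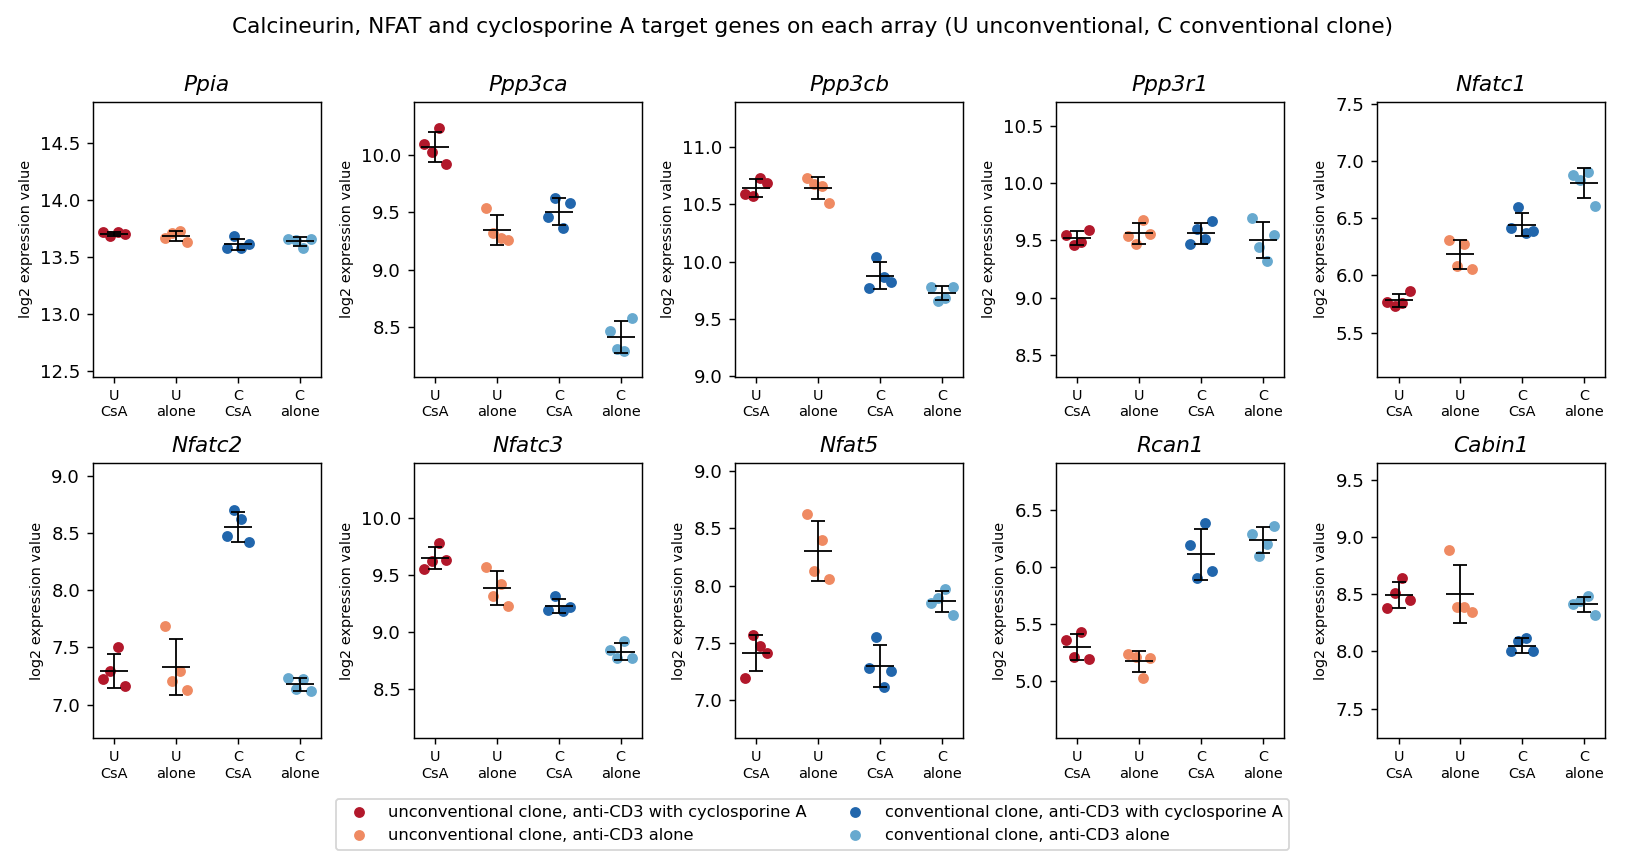
Log2 expression value (vertical axis, a span of the same size in every panel) of each gene on each array, with U for the unconventional and C for the conventional clone, and CsA or alone for anti-CD3 with cyclosporine A or without it. Points are arrays, and the black marks are the mean ± SD (n = 4). The 4 conventional arrays with CsA stand alone at 8.42 to 8.70 for Nfatc2, while the 4 groups of Ppia lie between 13.58 and 13.73.

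Cyclophilin A, a peptidyl-prolyl isomerase and the intracellular receptor of CsA, gave signals within a narrow range. Ppia stood at 13.70 ± 0.02 in the unconventional clone with CsA and 13.68 ± 0.04 with anti-CD3 alone, and at 13.61 ± 0.05 in the conventional clone with CsA and 13.64 ± 0.04 with anti-CD3 alone (SD, n = 4 each). The log2 change with CsA was 0.02 in the unconventional clone (95% interval -0.10 to 0.14) and -0.03 in the conventional clone (-0.14 to 0.09). With CsA the arrays of the clones did not overlap, but the difference of 0.09 was not called (adjusted p = 0.188). It was called when the variance was allowed to depend on intensity (adjusted p = 0.0177). The annotation gives Ppia 7 probe sets, and the one with the highest mean was used. Ppia has many near-identical pseudogene copies, so the probe sets may share signal. All 7 were bright, with means from 12.07 to 13.66, and their log2 changes over all 5 comparisons ran from -0.05 to 0.10, with 0 of 35 tests called (lowest adjusted p = 0.139 in the limma fit over all probe sets). The highest value of any probe set was 14.55, and whether saturation narrowed the range of Ppia was not tested.

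Ppp3ca, the α form of the catalytic subunit, had the widest span of group means among the 10 genes, 1.66 log2 units. In the unconventional clone it read 10.1, 10.03, 10.24 and 9.92 with CsA, against 9.54, 9.32, 9.28 and 9.26 with anti-CD3 alone. The conventional clone gave 9.46, 9.63, 9.36 and 9.58 with CsA, against 8.46, 8.31, 8.29 and 8.58 with anti-CD3 alone. Every array with CsA lay above every array without it in the same clone, and the unconventional clone lay above the conventional one under both treatments. The rise was 0.73 (SE 0.09, adjusted p = 3.72e-06), or 1.65-fold, in the unconventional clone and 1.10 (SE 0.09, adjusted p = 5.84e-09), or 2.14-fold, in the conventional clone. Arrays of the unconventional clone without the drug overlapped those of the conventional clone with it. The effect in the unconventional clone minus that in the conventional clone was -0.37 (SE 0.13, adjusted p = 0.053), just short of a call, and the adjusted p ran from 0.0267 to 0.119 over 23 alternatives. It was under the threshold in 5 of them, among these the fits without replicate 4 of conventional cells with anti-CD3 alone (-0.43), without replicate 3 of the conventional clone with CsA (-0.42) and without replicate 3 of the unconventional clone with CsA (-0.43).

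Ppp3cb, the β form of the catalytic subunit, separated the clones and not the treatments. It read 10.59, 10.57, 10.73 and 10.69 in the unconventional clone with CsA, against 10.73, 10.68, 10.66 and 10.51 with anti-CD3 alone. Values in the conventional clone were 9.77, 10.04, 9.87 and 9.82 with CsA, against 9.78, 9.66, 9.68 and 9.78 with anti-CD3 alone. The treatments overlapped within each clone, and the clones did not overlap. The change with CsA was 0.00 in the unconventional clone (95% interval -0.15 to 0.16, adjusted p = 0.982) and 0.15 in the conventional clone (-0.00 to 0.30, adjusted p = 0.144).

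Ppp3r1, the calcium-binding B subunit that partners either catalytic form, had the narrowest span of group means among the 10 genes. Its group means spanned 0.06, less than the SD within groups of 0.11, and all neighbouring groups overlapped. It stood at 9.52 ± 0.06 in the unconventional clone with CsA and 9.56 ± 0.09 with anti-CD3 alone, and at 9.56 ± 0.09 in the conventional clone with CsA and 9.50 ± 0.16 with anti-CD3 alone (SD, n = 4 each). The 95% interval of its change with CsA was -0.21 to 0.13 in the unconventional clone and -0.11 to 0.23 in the conventional clone.

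**Figure D2:**
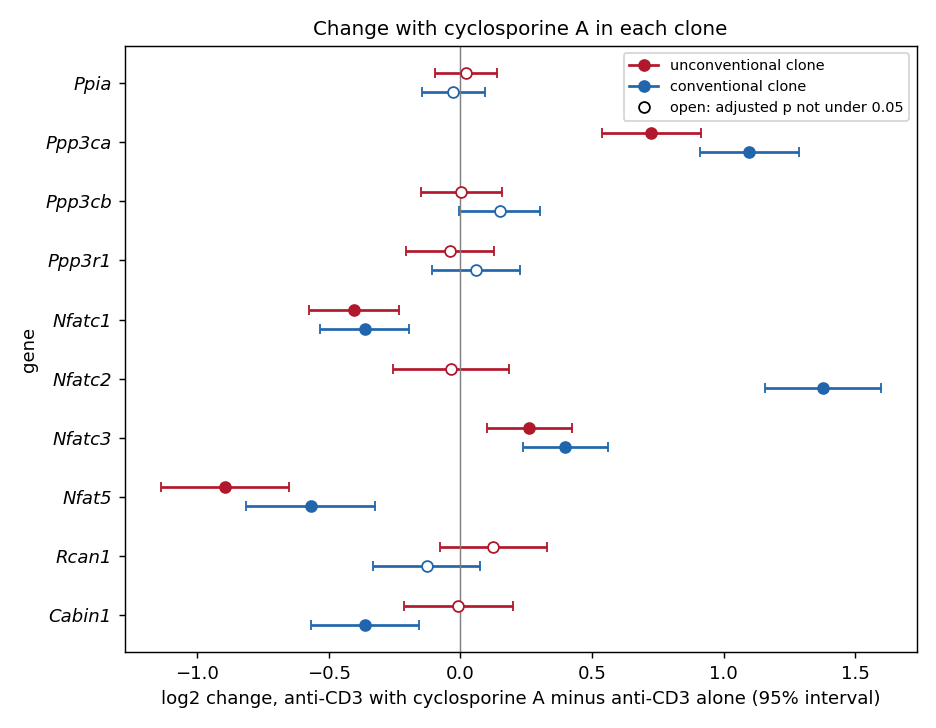
Log2 change with cyclosporine A (horizontal axis, anti-CD3 with the drug minus anti-CD3 alone) of each gene in the unconventional clone (red, upper) and the conventional clone (blue, lower), with 95% intervals from the limma fit and open points where the adjusted p was not under 0.05. Nfatc2 lies at -0.04 in the unconventional and 1.38 in the conventional clone, and the other 9 pairs of points lie closer together.

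Nfatc2 (NFAT1), an NFAT protein that resting T cells already hold, rose with CsA in the conventional clone and not in the unconventional one. In the unconventional clone it read 7.22, 7.29, 7.5 and 7.16 with CsA, against 7.69, 7.21, 7.29 and 7.13 with anti-CD3 alone. Conventional arrays read 8.47, 8.7, 8.62 and 8.42 with CsA, against 7.23, 7.14, 7.22 and 7.12 with anti-CD3 alone. The 4 arrays of the conventional clone with CsA lay above the other 12, and the other groups overlapped their neighbours in order of mean. The change with CsA was -0.04 (SE 0.10, adjusted p = 0.876) in the unconventional clone and 1.38 (SE 0.10, adjusted p = 2.14e-09), or 2.59-fold, in the conventional clone. The difference of these effects was -1.41 (SE 0.15, adjusted p = 8.85e-07). Over 23 alternatives it ran from -1.48 to -1.29 and was called in all of them. Nfatc2 was the 1 gene of the 10 with a called difference, against 16.3% of all genes. The CsA effect was higher in the unconventional than in the conventional clone for 8.51% of all genes and lower for 7.78%. Nfatc2 was also the 1 gene with a called difference of at least 2-fold, against 3.12% of all genes.

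The table of RefSeq promoters (assembly GRCm38.p6) held 11 windows for 8 of the 10 genes, each from 250 bases before to 50 bases after a transcription start, and Nfatc2 had 2 of them. They are shown because Nfatc2 was the 1 gene of the 10 with a called difference of CsA effects. Capitals mark GGAAA, the core letters that NFAT proteins bind, on either strand (TTTCC is GGAAA on the other strand). The first window lies upstream of the second along the gene, which is on the minus strand.
Nfatc2 upstream start, chr2:168601608-168601907, minus strand: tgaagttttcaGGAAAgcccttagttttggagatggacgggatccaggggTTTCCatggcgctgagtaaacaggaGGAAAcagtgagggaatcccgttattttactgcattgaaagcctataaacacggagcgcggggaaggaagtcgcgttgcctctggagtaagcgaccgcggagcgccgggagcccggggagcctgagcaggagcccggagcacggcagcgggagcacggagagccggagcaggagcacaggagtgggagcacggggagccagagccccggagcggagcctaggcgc
Nfatc2 downstream start, chr2:168590316-168590615, minus strand: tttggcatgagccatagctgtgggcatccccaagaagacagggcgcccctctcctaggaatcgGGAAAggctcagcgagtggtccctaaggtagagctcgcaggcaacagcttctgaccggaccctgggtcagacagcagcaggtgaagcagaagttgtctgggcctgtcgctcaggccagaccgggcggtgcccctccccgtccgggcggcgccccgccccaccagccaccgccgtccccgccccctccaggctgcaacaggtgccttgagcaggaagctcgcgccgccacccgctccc
The upstream window held 3 matches and the downstream window 1. GGAAA was present in 61.3% of 32851 windows of the same length, with a median of 1 match, and 9.4% held 3 or more. The match is to letters alone, and the probe set does not tell which start was used.

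Nfatc1 (NFAT2), whose gene carries an NFAT-dependent promoter in T cells, fell in both clones. It read 5.77, 5.73, 5.76 and 5.86 in the unconventional clone with CsA, against 6.31, 6.08, 6.27 and 6.06 with anti-CD3 alone. The conventional clone gave 6.41, 6.6, 6.37 and 6.39 with CsA, against 6.88, 6.83, 6.9 and 6.61 with anti-CD3 alone. No 2 neighbouring groups overlapped in the order from the unconventional clone with CsA, the lowest, to the conventional clone with anti-CD3 alone, the highest. The fall was by 0.40 on the log2 scale (SE 0.08, adjusted p = 0.000743) in the unconventional clone and by 0.36 (SE 0.08, adjusted p = 0.00136) in the conventional clone. The difference of effects was -0.04, with a 95% interval of -0.28 to 0.20 (adjusted p = 0.899).

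Nfatc3 (NFAT4), a further calcium-regulated family member, moved the other way. It read 9.55, 9.62, 9.78 and 9.63 in the unconventional clone with CsA, against 9.57, 9.31, 9.42 and 9.23 with anti-CD3 alone. Values in the conventional clone were 9.19, 9.31, 9.18 and 9.22 with CsA, against 8.84, 8.77, 8.92 and 8.77 with anti-CD3 alone. The groups overlapped at their edge in the unconventional clone and not in the conventional clone. The rise was 0.26 (SE 0.08, adjusted p = 0.0147) in the unconventional clone and 0.40 (SE 0.08, adjusted p = 0.00031) in the conventional clone. The call in the unconventional clone was lost with median centring (0.22, adjusted p = 0.0948), without its replicate 4 with anti-CD3 alone (0.21, adjusted p = 0.0641) and without its replicate 3 with CsA (0.22, adjusted p = 0.062). The adjusted p of this rise ran from 0.00142 to 0.0948 over 24 alternatives.

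Nfat5 (TonEBP), the family member that responds to osmotic stress and lacks the calcineurin-binding region, fell in both clones. It read 7.19, 7.57, 7.47 and 7.41 in the unconventional clone with CsA, against 8.63, 8.13, 8.4 and 8.06 with anti-CD3 alone. Conventional arrays read 7.28, 7.55, 7.11 and 7.25 with CsA, against 7.85, 7.89, 7.97 and 7.74 with anti-CD3 alone. The treatments did not overlap in either clone, and with CsA the clones overlapped. The fall was by 0.89 (SE 0.12, adjusted p = 6.84e-06) in the unconventional clone and by 0.57 (SE 0.12, adjusted p = 0.000591) in the conventional clone. The difference of effects, -0.33, was not called (95% interval -0.67 to 0.02, adjusted p = 0.229).

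Rcan1 encodes a protein that binds calcineurin and restrains it, and its downstream promoter is a known NFAT target. It differed between the clones and was not called for CsA in either. It read 5.36, 5.21, 5.43 and 5.19 in the unconventional clone with CsA, against 5.24, 5.21, 5.03 and 5.2 with anti-CD3 alone. The conventional clone gave 6.19, 5.9, 6.38 and 5.96 with CsA, against 6.29, 6.09, 6.2 and 6.36 with anti-CD3 alone. Treatments overlapped within each clone, and every unconventional array lay below every conventional one. The change with CsA was 0.12 (95% interval -0.08 to 0.33, adjusted p = 0.449) in the unconventional clone and -0.13 (-0.33 to 0.08, adjusted p = 0.39) in the conventional clone. Its values in the unconventional clone lay near the array medians.

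Rcan1 has 2 RefSeq starts, and its 1 probe set does not tell them apart. The downstream start is the one known to be driven by NFAT, and both are shown for comparison, with GGAAA or TTTCC in capitals as above.
Rcan1 upstream start, chr16:92466120-92466419, minus strand: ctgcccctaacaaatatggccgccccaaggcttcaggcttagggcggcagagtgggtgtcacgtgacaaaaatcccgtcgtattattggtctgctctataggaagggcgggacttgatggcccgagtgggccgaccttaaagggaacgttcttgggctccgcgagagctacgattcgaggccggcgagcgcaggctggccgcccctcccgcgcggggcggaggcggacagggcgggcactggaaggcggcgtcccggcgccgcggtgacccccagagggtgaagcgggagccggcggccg
Rcan1 downstream start, chr16:92400029-92400328, minus strand: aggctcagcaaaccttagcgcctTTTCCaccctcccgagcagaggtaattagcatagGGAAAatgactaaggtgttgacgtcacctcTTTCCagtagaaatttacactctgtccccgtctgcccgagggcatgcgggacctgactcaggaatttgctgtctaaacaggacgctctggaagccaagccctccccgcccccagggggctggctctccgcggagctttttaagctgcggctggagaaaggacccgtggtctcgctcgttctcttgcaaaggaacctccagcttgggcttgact
The downstream window held 3 matches and the upstream window 0. Of the 32851 windows 9.4% held 3 or more and 2.6% held 4 or more. Among the other genes, GGAAA had 4 matches in the window of Ppp3cb, 2 in that of Nfat5, 1 in that of Ppia, and 1 and 0 in the windows of Nfatc3. Those of Ppp3r1 and Cabin1 held 0.

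Cabin1, a large scaffold protein that binds calcineurin and represses MEF2 factors, was lower with CsA in the conventional clone. It read 8.38, 8.51, 8.64 and 8.45 in the unconventional clone with CsA, against 8.89, 8.39, 8.39 and 8.34 with anti-CD3 alone. Values in the conventional clone were 8, 8.09, 8.12 and 8 with CsA, against 8.41, 8.44, 8.48 and 8.32 with anti-CD3 alone. The groups overlapped in the unconventional clone, where 1 array without the drug stood at 8.89, and did not overlap in the conventional clone. The change was -0.01 (SE 0.10, adjusted p = 0.977) in the unconventional clone, and the fall was by 0.36 (SE 0.10, adjusted p = 0.00677) in the conventional clone. The difference of effects, 0.35 (SE 0.14), was not called (adjusted p = 0.0981), but it was without that 1 array, replicate 1 (0.48, adjusted p = 0.00161), and with array weights (0.44, adjusted p = 0.0127). The adjusted p ran from 0.00161 to 0.197 over 23 alternatives.

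Between the clones with anti-CD3 alone, 6 of the 10 genes were called, 4 higher and 2 lower in the unconventional clone. Over all genes 42% were called, 20.3% higher and 21.7% lower. That is 4048 genes higher and 4328 lower (48.3% of the called genes higher), and with median centring of the arrays 4418 higher and 2952 lower (59.9%). With CsA, 7 of the 10 were called, 4 higher and 3 lower, against 44.2% of all genes (21.3% higher and 23% lower). That is 4240 genes higher and 4581 lower, and with median centring 4374 higher and 3562 lower (55.1% higher). A called difference of at least 2-fold was seen for 1 gene with CsA, Nfatc2 (9.84% of all genes), and for 1 with anti-CD3 alone, Rcan1 (7.74% of all genes). The clones' arrays did not overlap for 8 of the 10 with CsA (42.2% of all genes) and for 6 with anti-CD3 alone (38.6% of all genes). The comparisons between clones use the same arrays as the comparisons of CsA above.

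The α and β forms of the catalytic subunit were higher in the unconventional clone. Ppp3ca was higher by 0.57 with CsA (adjusted p = 2.44e-05) and by 0.94 with anti-CD3 alone (adjusted p = 3.73e-08). Ppp3cb was higher by 0.77 with CsA (adjusted p = 2.41e-08) and by 0.92 with anti-CD3 alone (adjusted p = 2.59e-09). Ppp3cc, the γ form of the catalytic subunit and no member of the 10, was lower by 0.53 with CsA and by 0.69 with anti-CD3 alone, and both were called. The B subunit Ppp3r1 was called under neither treatment (-0.04 with CsA and 0.06 with anti-CD3 alone).

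Of the NFAT factors, Nfatc3 was higher in the unconventional clone by 0.42 with CsA (adjusted p = 0.000122) and by 0.56 with anti-CD3 alone (adjusted p = 5.23e-06), and Nfatc1 was lower, at -0.66 with CsA (adjusted p = 8.96e-07) and -0.62 with anti-CD3 alone (adjusted p = 2.62e-06). Nfatc2 differed by -1.26 with CsA (adjusted p = 3.39e-09) and by 0.15 with anti-CD3 alone (adjusted p = 0.265). Nfat5 differed by 0.12 with CsA (adjusted p = 0.438) and was higher by 0.44 with anti-CD3 alone (adjusted p = 0.00441). Rcan1 was lower in the unconventional clone, at -0.81 with CsA (adjusted p = 6.44e-07). With anti-CD3 alone it was lower at -1.06, a fold of 0.479 (adjusted p = 1.89e-08). Its means in the unconventional clone, 5.30 with CsA and 5.17 with anti-CD3 alone, lay near the array medians. Background was not measured, so both differences may be smaller than the difference in RNA. Cabin1 was higher by 0.45 with CsA (adjusted p = 0.000825) and not called with anti-CD3 alone (0.09, adjusted p = 0.481). The mean of 7 T cell markers was lower in the unconventional clone: 9.43 to 9.53 per array in the unconventional clone with CsA against 10.36 to 10.42 in the conventional clone with CsA, and with anti-CD3 alone 9.57 to 9.61 in the unconventional against 10.18 to 10.33 in the conventional clone. Of the 7, 3 were called lower with anti-CD3 alone, Cd8a at -2.19, Cd8b1 at -2.08 and Cd247 at -0.69, while Cd3d (-0.15), Cd3e (0.25), Cd3g (0.04) and Cd2 (0.06) were not called. With CsA the same 3 and Cd2 (-0.25) were called lower. Cd2 lay under the array medians in every group, at 3.99 to 4.25. Of all genes 21.7% were called lower with anti-CD3 alone and 23% with CsA. The part of the T cell markers in the differences between clones was not tested.

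**Figure D3:**
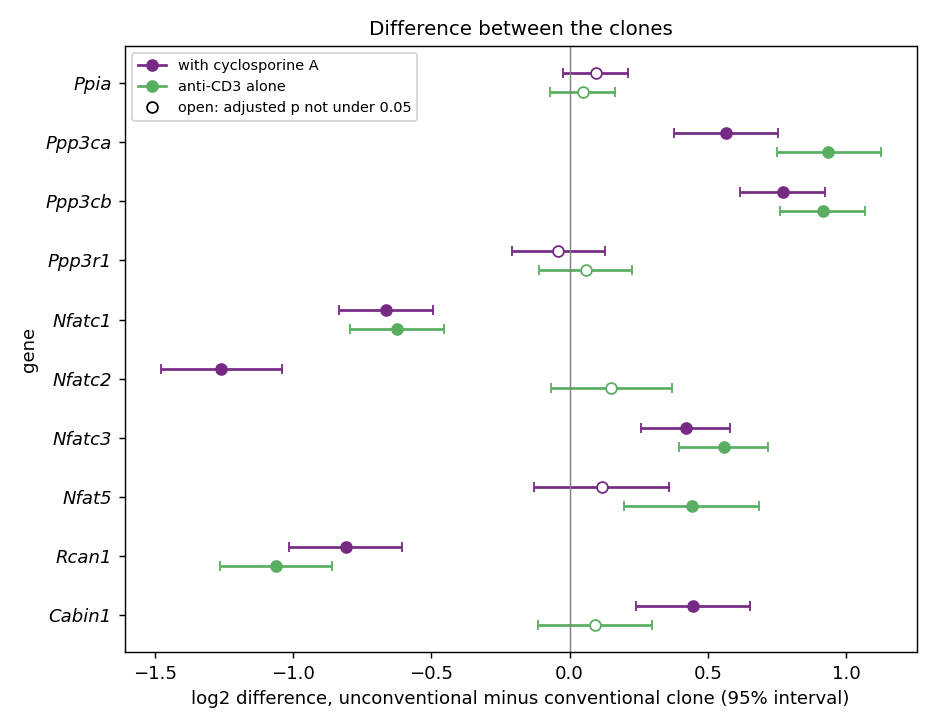
Log2 difference between the clones (horizontal axis, unconventional minus conventional) of each gene, with cyclosporine A (purple, upper) and with anti-CD3 alone (green, lower), with 95% intervals and open points where the adjusted p was not under 0.05. Ppp3ca, Ppp3cb and Nfatc3 lie right of 0 and Nfatc1 and Rcan1 left of it under both treatments.

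Other genes that bind or regulate calcineurin and NFAT were counted in a list of 25, of which 24 were measured. Counts in the lists are of called genes. In the unconventional clone 5 rose and 6 fell with CsA (median 0.02, as over all genes). In the conventional clone 3 rose and 8 fell (median -0.04, against 0.02 over all genes). Of all genes, 12.6% were called higher and 12.3% lower with CsA in the unconventional clone, and 15.9% and 15.5% in the conventional clone. Camk4, a kinase that calmodulin activates, fell by 0.86 in the unconventional clone and fell by 0.77 in the conventional clone. Fkbp1a (FKBP12), the receptor of the other calcineurin inhibitor FK506, fell by 0.30 in the unconventional clone and fell by 0.64 in the conventional clone, with a called difference of 0.35 between the effects. Xpo1, the exportin that carries NFAT out of the nucleus, fell by 0.26 in the unconventional clone and fell by 0.65 in the conventional clone. For Xpo1 the difference of 0.38 was called. Chp1, a calcineurin B homologue that inhibits calcineurin, rose by 0.66 in the unconventional clone and changed by 0.18 without a call in the conventional clone, and the difference of 0.48 was called. Fkbp8 (FKBP38), a relative of FKBP12, rose by 0.50 in the unconventional clone and by 0.59 in the conventional clone. Itpkb, an inositol trisphosphate kinase, changed by 0.16 without a call in the unconventional clone and rose by 0.65 in the conventional one. For Itpkb the difference of -0.48 was called. Mef2c, a transcription factor of the family that Cabin1 represses, rose by 1.03 in the unconventional clone. Its change was -0.07 without a call in the conventional clone, and the difference of 1.10 was called. It averaged 5.37 with CsA and 4.34 with anti-CD3 alone in the unconventional clone, and 4.19 and 4.26 in the conventional clone. All but the first lay under the array medians, where the probe set is not shown to be above background. The conventional value thus does not show that RNA was unchanged. Rcan3, a relative of Rcan1, fell by 0.32 in the unconventional clone and fell by 0.37 in the conventional clone. Rcan2 and Nfatc4 had group means of 3.87 to 4.18 and 4.47 to 4.64 and were not called for CsA. Both lay under the array medians, where a change may not be seen.

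Between the clones with anti-CD3 alone, 7 genes of this list were higher in the unconventional clone and 8 lower. The median was -0.08, against -0.07 over all genes, of which 20.3% were called higher and 21.7% lower. Nfatc2ip, an NFAT-binding cofactor, was higher by 1.25 and Itpkb lower, at -0.71. Trim39 was lower, at -0.66.

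Kinases that phosphorylate NFAT or feed into that step were counted in a list of 15, of which 14 were measured. With CsA 2 rose and 1 fell in the unconventional clone (median 0.05), and 5 rose and 2 fell in the conventional clone (median 0.10). Over all genes 12.6% rose and 12.3% fell in the unconventional clone (median 0.02), and 15.9% and 15.5% in the conventional clone (median 0.02). Prkacb, a catalytic subunit of protein kinase A, rose by 1.92 (SE 0.07) in the unconventional clone and by 2.59 (SE 0.07) in the conventional clone, and the difference of -0.66 was called. Csnk1e, a casein kinase 1 isoform, fell by 0.47 in the unconventional clone and fell by 1.02 in the conventional clone. For Csnk1e the difference of 0.55 was called. Dyrk2 and Dyrk3 changed by 0.13 and 0.18 in the unconventional clone, without a call, and by -0.90 and 0.91 in the conventional clone, where both were called. The difference of effects was called for both, at 1.03 for Dyrk2 and -0.73 for Dyrk3. Mapk14 (p38α) rose by 0.36 in the unconventional clone and by 0.82 in the conventional clone, and the difference of -0.46 was called. Between the clones with anti-CD3 alone 5 of the kinases were higher in the unconventional clone and 5 lower, against 20.3% and 21.7% of all genes. Among them were Mapk8 (JNK1) at 1.37, Mapk9 (JNK2) at 0.73, Prkacb at 0.59 and Dyrk2 at -0.64.

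Of 16 other cyclophilins, 1 rose and 5 fell with CsA in the unconventional clone (median -0.11). In the conventional clone 3 rose and 5 fell (median -0.06). All genes gave 12.6% higher and 12.3% lower in the unconventional clone, and 15.9% and 15.5% in the conventional clone (both medians 0.02). Ppif (cyclophilin D), a regulator of the mitochondrial permeability pore, fell by 0.44 in the unconventional clone and fell by 0.52 in the conventional clone. Ppid (cyclophilin 40), a partner of Hsp90, fell by 0.43 in the unconventional clone and fell by 0.98 in the conventional clone. Ppil1 and Ppih, which belong to the spliceosome, changed by -0.45 and -0.39 in the unconventional clone and by -0.98 and -0.71 in the conventional clone, all called. The difference of effects was called for Ppid (0.56), Ppil1 (0.54) and Ppih (0.32). Ppil2 rose by 0.44 in each clone. With anti-CD3 alone 10 of the 16 were higher in the unconventional clone and 3 lower, against 20.3% and 21.7% of all genes. The median was 0.23, against -0.07 over all genes. The highest were Ppih at 1.36, Ppil1 at 0.74, Ppid at 0.72 and Ppwd1 at 0.67.

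**Figure D4:**
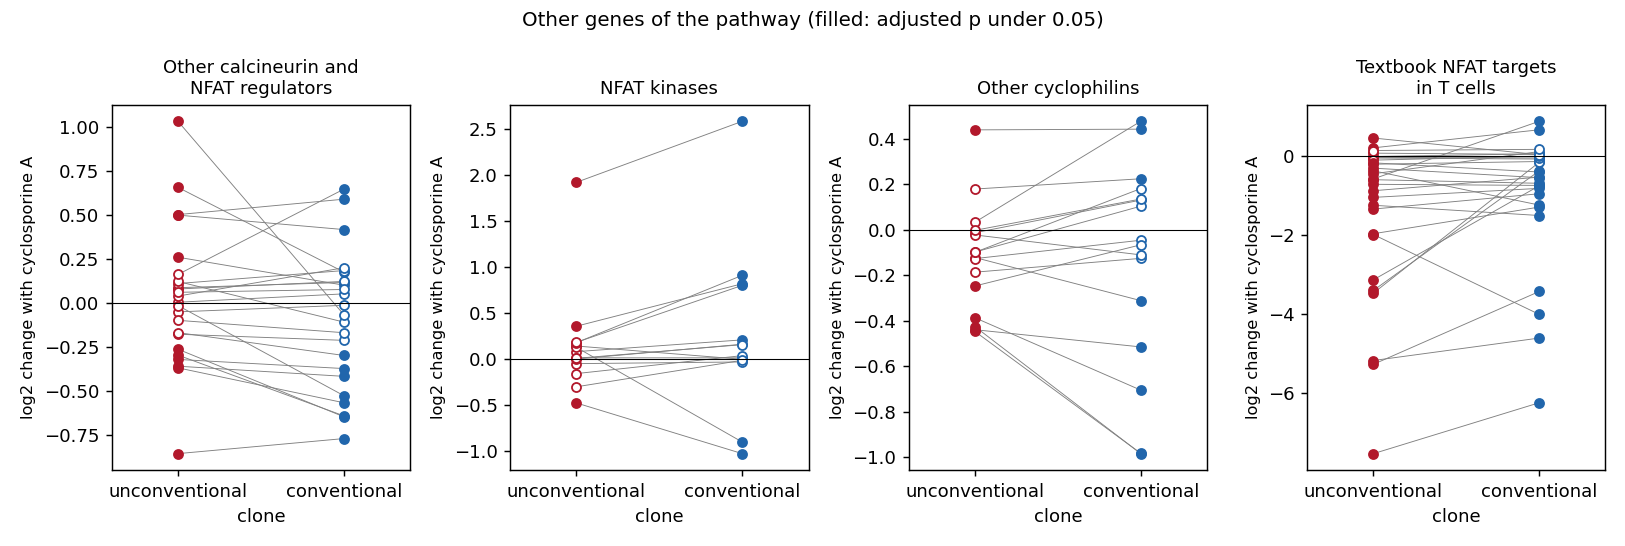
Log2 change with cyclosporine A (vertical axis, a scale of its own in each panel) of each gene of 4 lists in the unconventional clone (red, left) and the conventional clone (blue, right), with a line joining the same gene and filled points where the adjusted p was under 0.05. Prkacb stands above the other kinases at 1.92 in the unconventional and 2.59 in the conventional clone, and the NFAT targets reach down to Ccl3 at -7.55 in the unconventional and -6.25 in the conventional clone.

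Known NFAT targets in T cells were counted beside the components of the pathway, and their dependence on NFAT in these clones was not tested. These targets, like the other lists, were chosen with earlier results of these data known. Of 28 such genes, 2 rose and 18 fell with CsA in the unconventional clone (median -0.59, against 0.02 over all genes). In the conventional clone 2 rose and 15 fell (median -0.47, against 0.02). Over all genes 12.6% rose and 12.3% fell in the unconventional clone, and 15.9% and 15.5% in the conventional clone. Those that rose were Havcr2 (0.21) and Ikzf2 (0.46) in the unconventional clone, and Havcr2 (0.67) and Pdcd1 (0.88) in the conventional clone. Il4, Il5, Il21 and Cd40lg had group means of 3.13 to 3.76, under the array medians, where a fall may not be seen. Lag3 (4.30 to 4.55) and Tox (4.84 to 5.16) also lay no higher than the array medians. Csf2, counted among the falls in both clones, lay under them in every group, at 4.08 to 5.09. The signal of the chemokine Ccl3 fell by 7.55 in the unconventional clone and fell by 6.25 in the conventional clone. With CsA it averaged 5.48 in the unconventional clone, near the array medians, and 7.40 in the conventional clone. Xcl1, also a chemokine, fell by 5.18 in the unconventional clone and fell by 4.61 in the conventional clone, and with CsA averaged 4.85 in the unconventional and 4.90 in the conventional clone, under the array medians. Where a group lies that low the probe set is not shown to be above background, so the change in signal may be smaller than the change in RNA. This holds for Ccl3 in the unconventional clone, for Xcl1 in both, and for Il17a and Il3 below. It also holds for Mef2c and Rcan1 above, which were low in the unconventional clone with anti-CD3 alone. Ifng fell by 5.28 in the unconventional clone and fell by 3.43 in the conventional clone, and the difference of -1.85 was called. Il17a fell by 3.47 in the unconventional clone, where it averaged 4.99 with CsA, and was not called in the conventional clone (-0.16), where it averaged 5.22 with CsA and 5.38 with anti-CD3 alone. The inhibitory receptor Ctla4 fell by 1.99 in the unconventional clone and fell by 4.01 in the conventional clone, and the difference of 2.02 was called. A difference of CsA effects was called for 12 of the 28 targets, against 16.3% of all genes. The effect was higher in the unconventional clone for 3 and lower for 9, against 8.51% and 7.78% of all genes. Among the 9 were Ccl3 at -1.29, Il17a at -3.32 and Pdcd1 at -1.46. Pdcd1 was called lower with CsA in the unconventional clone, at -0.58. Among the 10 genes the largest absolute change was 0.89, in Nfat5, in the unconventional clone and 1.38, in Nfatc2, in the conventional clone. Between the clones with anti-CD3 alone 5 targets were higher in the unconventional clone and 11 lower, against 20.3% and 21.7% of all genes. Il17a was higher by 3.09 and the cytokine Il3 by 2.90, with 5.38 and 4.08 in the conventional clone, while the inhibitory receptor Pdcd1 was lower, at -4.19, and so was Ctla4, at -2.84.

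The genes most like Ppp3ca, by Pearson's r over the 16 arrays, were Pkp2 (0.978), Adam10 (0.977), Ctps2 (0.977), Akt2 (0.974) and Smarca2 (0.973). Each had its highest group mean in the unconventional clone with CsA and its lowest with anti-CD3 alone in the conventional clone, as Ppp3ca did. Pkp2, for example, averaged 8.22 and 6.78 in the unconventional clone with CsA and with anti-CD3 alone, and 7.28 and 5.35 in the conventional clone with CsA and with anti-CD3 alone. Those most like Rcan1 were Pdzd4 (0.984), Dmtn (0.978), Nupr1 (0.968), Sirt2 (0.966) and P4htm (0.966), all lower in the unconventional clone. Dmtn, for example, averaged 5.51 and 5.41 there with CsA and with anti-CD3 alone, and 6.35 and 6.39 in the conventional clone with CsA and with anti-CD3 alone. Among the 10 genes themselves, Ppp3ca and Nfatc3 were most alike (r = 0.93) and Rcan1 and Ppp3cb most opposed (r = -0.947). These correlations are descriptions over arrays that fall into 4 groups.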

How the data were processed

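RNA of 16 samples was hybridised to Affymetrix arrays, in 4 groups of 4. The authors deposited log2 expression values per probe set. The tools listed are GCOS, RMA and Partek 6.2, per the submitters' processing notes, which do not say which did what. Values of 2.08 to 14.55 were taken as log2. Where RMA brings arrays to 1 distribution, a shift common to most genes is not seen. No genome build is named. The number of arrays limits the precision.

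The platform annotation gave 1 symbol to 21789 of 28853 probe sets, several to 1621 and none here to 5443. An Entrez ID matched the gene table of GRCm38.p6 for 99.6% of the first kind, and 0 symbols changed. The probe set with the highest mean was used per gene, with no filter on dim genes. A mean per group was fitted with limma 3.58.1 in R 4.3.3, on 12 residual degrees of freedom with empirical Bayes moderation, two-sided. The fit was tested on simulated data. The members and the gene lists were chosen with earlier results of these data known. Named were all members, Ppp3cc, Nfatc4, Rcan2, Rcan3 and Ppif, up to 4 called genes per list with the largest change in each CsA comparison and between clones with anti-CD3 alone, and the 5 genes most correlated with Ppp3ca, the gene with the widest span, and with Rcan1. Genes named in 1 comparison are given in others for contrast. Alternatives were median centring, quantile normalization, brighter genes only, the mean of all probe sets, an intensity trend, array weights, fits of the compared groups only, a replicate block, and leaving out each array. Promoter windows came from RefSeq.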

Additional observations from a re-analysis of the deposited data

Results flagged for a closer look

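The change of Nfatc2 with CsA differed between the clones, at -1.41 (SE 0.15, limma, adjusted p = 8.85e-07) for the effect in the unconventional clone minus that in the conventional clone. The 4 conventional arrays with CsA lay above the 4 without it, while the unconventional groups overlapped.

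Cabin1 had 1 array far from the other 3 of its group: replicate 1 of the unconventional clone with anti-CD3 alone read 8.89, and its gap to the next array was 0.91 of the group's range. This was 1 of 40 groups of 4 arrays examined, and chance alone marks about 1 in 20 such groups.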

How the results depend on the processing

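Of 1190 alternative values for the 10 genes, 1153 kept their direction and their side of the threshold, 3 lost a call, 8 gained one and 26 changed sign. The 26 were uncalled values near 0, and the cause was not tested. With median centring the log2 change in the unconventional clone was -0.0423 for Ppp3cb and -0.0251 for Ppia, and Ppp3r1 differed between clones by 0.000755 with CsA. With quantile normalization Ppia was at -0.00423 in the unconventional and 0.000131 in the conventional clone, with a difference of -0.00436, and Cabin1 was at 0.0211 in the unconventional clone and -0.00668 between clones with anti-CD3 alone. With array weights Nfatc2 and Cabin1 were at 0.0294 and 0.0637 in the unconventional clone, and the difference for Nfatc1 was 0.011. Leaving out each array in turn gave ranges across 0 in the unconventional clone for Nfatc2 (-0.105 to 0.0836), Ppp3cb (-0.0409 to 0.0328), Ppp3r1 (-0.0718 to 0.00112) and Cabin1 (-0.06 to 0.12). It did so for Ppp3r1 in the conventional clone (-0.000791 to 0.124), for Nfatc1 in the difference (-0.0803 to 0.0259), and between clones with anti-CD3 alone for Cabin1 (-0.0352 to 0.145) and Ppp3r1 (-0.00251 to 0.123).

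The number of the 10 genes with a called difference of effects, 1, was 2 with brighter genes only, an intensity trend or array weights, and 1 to 2 when 1 array was left out. The labels state no pairing of the samples by replicate number. Deviations of same-numbered arrays from their group means correlated at -0.137 to 0.284 over 24 pairs. For 7 of 16 arrays the best match in another group bore the same number. Whether the samples were paired cannot be told from these values. With the replicate block the genes called with CsA were 4960 in the unconventional and 6258 in the conventional clone, and 3229 for the difference. Between clones they were 8778 with CsA and 8317 with anti-CD3 alone. The block changed no count of the 10 genes called.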

Other observations

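Replicate 1 of the unconventional clone with anti-CD3 alone was the highest array of its group for 8 of the 10 genes, against 28.1% of all genes. Replicate 2 of the conventional clone with CsA was the highest of its group for 7 of the 10, against 32.1% of all genes. These arrays were singled out after the values were seen. Without the first, the difference of effects was -1.29 for Nfatc2 and was called, as in the full set.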
